A study of Homo sapiens with 2 samples.

Results

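DNA damage response and repair genes encode the proteins that detect DNA lesions, signal their presence and remove them. They were analyzed in L-428, an established Hodgkin lymphoma (HL) cell line, by comparing cells after knock-down of the cancer/testis antigen PRAME (preferentially expressed antigen in melanoma) and vector control cells. A list of 48 genes, drawn up from their known roles, was used. Of these 48 genes, 44 had at least 1 probe set named for them alone, and all 44 passed the filter on low signals, out of 11794 genes that passed it in total and 19775 genes with a probe set of their own. BRCA2, FANCA and FANCD2 had no such probe set in the annotation used and were not analyzed here. PMS2 was measured only together with the related sequence PMS2CL.

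One array was hybridized with RNA from L-428 cells stably transfected with pcDNA6.2-GW/EmGFP-miR-PRAME, a vector for RNA interference against PRAME. The other array received RNA from L-428 cells that carried pcDNA6.2-GW/EmGFP-miR-neg as the vector control. Both vectors carry the green fluorescent marker EmGFP, the methods describe selection of transfected cells with blasticidin, and no drug treatment is named for the cells on the arrays. Whether the transfected cells came from 1 clone is not given in the sources used here. The sample labels name L-428, whereas the text for the whole series mentions L-540 and another array type. With 1 array per condition, no spread between cultures was measured, so no test was performed and no p value is given. In bulk RNA, fewer cells with a transcript and less transcript per cell cannot be told apart.

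Every array value was a MAS5 signal, a linear intensity in arbitrary units for one probe set. Log2 ratios are knock-down over control cells, centered on the median of all probe sets above the filter, and each gene is given by its probe set with the highest mean signal. PRAME itself had a signal of 1251 in knock-down cells and 2115 in control cells (204086_at, log2 ratio -0.80). Both arrays had a trimmed mean signal of 500.1. As a sign of RNA quality, 3' over 5' signal of GAPDH was 1.04 in knock-down cells and 0.948 in control cells, and that of ACTB was 1.17 in knock-down cells and 1.14 in control cells. All 6 markers of Hodgkin and Reed-Sternberg cells passed the filter, with signals between 782 and 11799 in knock-down cells and between 1177 and 11028 in control cells. Of 3 T cell and 3 myeloid markers none passed it. Of 4 B cell markers, 3 had a probe set and 2 passed (MS4A1 and CD79A), with signals of the list from 94.8 to 332 in knock-down cells and from 75.6 to 178 in control cells. The part of these markers in the results was not tested.

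As background, nucleotide excision repair cuts out bulky lesions such as those made by ultraviolet light or cisplatin, and the Fanconi pathway with homologous recombination unhooks crosslinks between DNA strands and repairs the resulting breaks. End joining religates broken ends directly, mismatch repair corrects replication errors, and translesion polymerases copy past damaged bases. The kinases ATM and ATR sense breaks and stalled forks and activate CHEK2 and CHEK1. The arrays were made to look for expression differences that accompany the response of PRAME knock-down cells to cytotoxic drugs, and the repair genes are one set in which to look.

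Most repair genes differed little between PRAME knock-down and control cells. Of the 44 measured genes, PARP1 was at least 1.5-fold higher and RAD50 at least 1.5-fold lower in knock-down cells, each being 2.27% of the genes. None differed by 2-fold, a difference that 1.73% of all genes showed on the high side and 0.729% on the low side. Among all 11794 genes, 7.54% were at least 1.5-fold higher and 5.42% at least 1.5-fold lower, which is 13.0% in either direction. The log2 ratio was below 0 for 26 of the 44 genes (59.1%, against 51.0% of all genes) and above 0 for 18, with a median of -0.10 and a range from -0.65 to 0.61. The median over all genes was -0.0069. The median size of the log2 ratio, without its sign, was 0.23 for the 44 genes as well as for all genes.

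The signal has to be considered beside these counts and medians, because log2 ratios spread more at low signals and their median also moved with signal. Of all genes with a mean signal of 97.7 to 284, 26.1% differed by at least 1.5-fold, against 4.68% of those between 2068 and 28319. The median log2 ratio of all genes was 0.19 in the lower of these ranges and -0.049 in the upper. Of the 44 repair genes, 3 lay in the lower range, with a median of 0.048, and 13 in the upper, with a median of -0.18. With a filter at the 75th percentile of the signal, 33 of the repair genes remained, again with 1 lower and 1 higher gene. These were 6.06% of the repair genes, whereas 7.48% of all 7392 genes passed 1.5-fold (4.99% lower and 2.49% higher). The median log2 ratio was -0.058 for the repair genes and -0.059 for all genes. The median size without the sign was 0.23 for the repair genes and 0.20 for all genes with this filter.

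**Figure D1:**
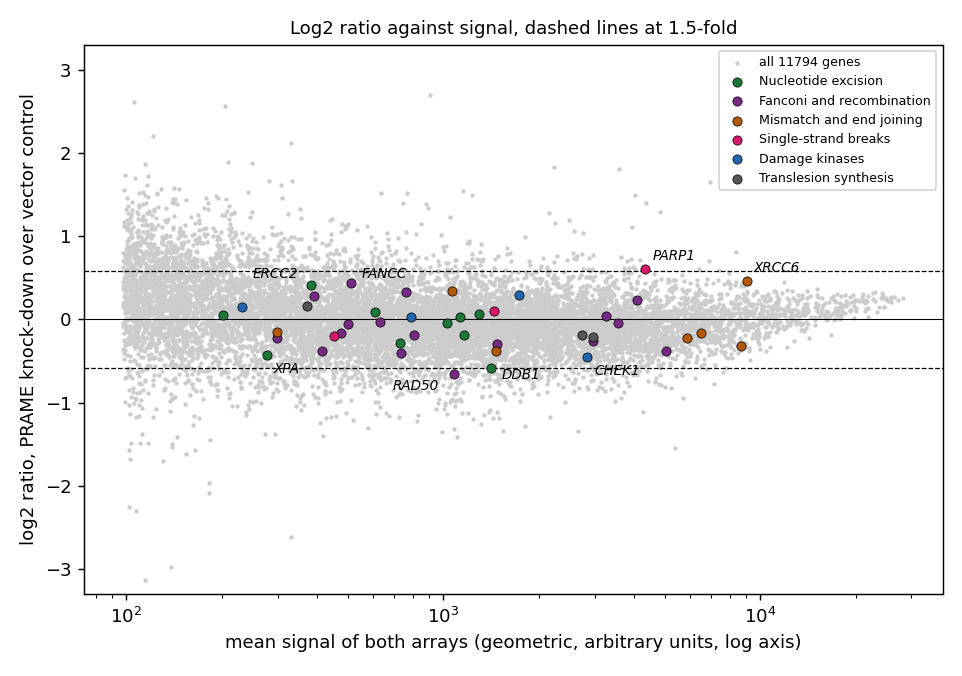
Log2 ratios (vertical axis, PRAME knock-down cells over control cells) plotted by geometric mean MAS5 signal (horizontal log axis), 1 array per condition, with 1 grey point for each of 11794 genes, 1 colored point for each of 44 repair genes and dashed lines at 1.5-fold. PARP1 (0.61) lies above the upper line and RAD50 (-0.65) below the lower line, with DDB1 (-0.58) just inside.

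The 4 genes at the ends of the range were PARP1 and XRCC6 on the high side and DDB1 and RAD50 on the low side. Their promoter windows, from 250 bases before to 50 bases after the start of the gene in RefSeq (GRCh38.p14), are shown to place these genes beside each other. They lie at chr1:226408044-226408343 on the minus strand, chr22:41621045-41621344 on the plus strand, chr11:61333056-61333355 on the minus strand and chr5:132556727-132557026 on the plus strand. Capitals mark matches, on either strand, to GGGCGG (SP1), CCAAT, CCGGAAGT (ETS), TTTCGCGC or TTTGGCGC (E2F) and the NRF1 palindrome, none of which overlapped another match in these windows.
PARP1: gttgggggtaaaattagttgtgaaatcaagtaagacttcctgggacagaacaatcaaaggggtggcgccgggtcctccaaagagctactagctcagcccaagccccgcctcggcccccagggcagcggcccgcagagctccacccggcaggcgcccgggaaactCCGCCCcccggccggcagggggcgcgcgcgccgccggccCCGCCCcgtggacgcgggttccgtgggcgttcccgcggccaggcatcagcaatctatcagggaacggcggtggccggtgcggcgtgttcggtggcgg
XRCC6: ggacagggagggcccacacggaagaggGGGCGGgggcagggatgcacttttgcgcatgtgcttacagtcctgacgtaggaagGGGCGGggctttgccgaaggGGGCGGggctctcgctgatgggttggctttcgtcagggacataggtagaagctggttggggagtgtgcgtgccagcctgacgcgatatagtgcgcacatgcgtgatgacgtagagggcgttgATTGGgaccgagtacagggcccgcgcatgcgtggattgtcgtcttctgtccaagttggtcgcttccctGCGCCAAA
DDB1: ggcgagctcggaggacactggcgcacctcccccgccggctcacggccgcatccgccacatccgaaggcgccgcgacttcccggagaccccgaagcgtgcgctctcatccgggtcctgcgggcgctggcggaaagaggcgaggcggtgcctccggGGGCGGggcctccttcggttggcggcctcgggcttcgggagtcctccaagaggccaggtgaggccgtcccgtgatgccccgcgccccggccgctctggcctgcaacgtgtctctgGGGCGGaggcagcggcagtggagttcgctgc
RAD50: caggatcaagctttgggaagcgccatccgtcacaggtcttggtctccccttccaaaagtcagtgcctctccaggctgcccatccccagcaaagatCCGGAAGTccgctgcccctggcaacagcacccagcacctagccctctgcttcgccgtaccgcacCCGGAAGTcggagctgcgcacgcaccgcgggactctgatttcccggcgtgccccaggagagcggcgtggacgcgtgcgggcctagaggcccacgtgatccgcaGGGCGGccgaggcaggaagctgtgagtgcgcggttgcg
GGGCGG was found in all 4 windows, 3 times in XRCC6, in 2 places each in PARP1 and DDB1 and once in RAD50, and it is present in 45.0% of all 35116 windows in the table. CCGGAAGT occurred in 2 places in the RAD50 window and in none of the other 3, and it is held by 4.14% of all windows, 7.51% of the windows of all measured genes and 8.33% of those of the repair genes. The XRCC6 window alone held CCAAT (34.6% of all windows) and TTTGGCGC (0.652%). Among the 40 repair genes with a RefSeq window, 42 of 60 windows held GGGCGG, which is 70.0% compared with 64.6% of the windows of all measured genes. A match of letters is not a bound site, and these arrays did not measure binding.

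Poly(ADP-ribose) polymerase 1 (PARP1) binds DNA breaks and builds polymer chains that recruit other repair factors. Its only probe set, 208644_at, gave 5449.8 in PRAME knock-down cells and 3458 in control cells, which was 1.53-fold higher after centering (log2 ratio 0.61). Among 1000 probe sets of the most similar signal, 98.9% lay below PARP1 in log2 ratio. The value was 0.66 without centering, 0.69 after quantile normalization, 0.67 after loess subtraction and 0.61 with an offset of 64, each above 1.5-fold. The remaining alternatives, on filter and probe sets, could not change a gene with 1 bright probe set, and it kept 0.61 there. The scaffold protein XRCC1 works with PARP1 in single-strand break repair and had a signal of 430 in knock-down cells and 477 in control cells (log2 ratio -0.20). LIG3, the ligase bound by XRCC1, had a signal of 1517 in knock-down cells and 1370 in control cells for its brightest probe set (0.10). The 4 other LIG3 probe sets above the filter all had log2 ratios below 0, between -0.64 and -0.24, so that the direction for LIG3 depended on the probe set.

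RAD50 is the coiled-coil subunit of the MRE11-RAD50-NBN complex, which holds and trims broken DNA ends. Probe set 208393_s_at gave 876 in knock-down cells and 1335 in control cells, which was 1.57-fold lower (log2 ratio -0.65), and 5.1% of the 1000 probe sets nearest in signal were lower. A second probe set, 209349_at, had 268 in knock-down cells and 399 in control cells (-0.62). The third, 238656_at, had nearly equal signals of 527 in knock-down cells and 535 in control cells (-0.067). After quantile normalization the log2 ratio of RAD50 was -0.579, and after removal of a loess curve it was -0.576, both just short of the threshold of 0.585. On chromosome 5, where RAD50 lies, the median over 526 measured genes was -0.16, and that of the 50 measured neighbours of RAD50 in gene order was -0.29. The part of this regional shift in the RAD50 value was not tested.
The partners of RAD50 had other values. NBN, the regulatory subunit that binds ATM, had a signal of 4485 in knock-down cells and 5631 in control cells (202907_s_at, log2 ratio -0.37). Of its 5 probe sets, 4 had log2 ratios below 0 and 202905_x_at had 0.41. MRE11, the nuclease, is not one of the 48 genes but belongs to a second list of repair genes. It had a signal of 1318 in knock-down cells and 1070.5 in control cells (205395_s_at, 0.26) and of 364 and 174 for 242456_at in the same order (1.02).

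Nucleotide excision repair genes as a group lay around 0. Of 10 genes, 5 had a log2 ratio below and 5 above 0, with a median of -0.0094. None of the 10 differed by 1.5-fold, against 13.0% of all genes. The lowest was DDB1, a subunit of the damage-binding complex and of CUL4 ubiquitin ligases, with a signal of 1171 in knock-down cells and 1696 in control cells (208619_at, log2 ratio -0.58). This was 1.49-fold lower, and 5.6% of the probe sets nearest in signal were lower. Its partner DDB2, which contacts ultraviolet lesions, had 1158 in knock-down cells and 1101 in control cells (0.028). XPC, the sensor of distorted DNA, had nearly equal signals of 1029 in knock-down cells and 1030.2 in control cells (-0.047).
XPA, which verifies the lesion and positions the nucleases, had a signal of 242 in knock-down cells and 317 in control cells (205672_at, -0.43). The 50 measured neighbours of XPA had a median of -0.18, and the part of this region in the XPA value was not tested. ERCC2 and ERCC3 are the helicases XPD and XPB of transcription factor TFIIH. ERCC2 had 446 in knock-down cells and 326 in control cells (235399_at, 0.41) and, for its second probe set 213468_at, 157 in knock-down cells and 85.6 in control cells (0.83). ERCC3 had 1342 in knock-down cells and 1244 in control cells (0.065). As the median of both probe sets the log2 ratio of ERCC2 was 0.62, past 1.5-fold, although the control signal of the second probe set was below the filter of 97.7.
The nuclease genes showed small values in their brightest probe sets. ERCC5 (XPG), which cuts on the 3' side, had 636 in knock-down cells and 579 in control cells (0.089). ERCC4 (XPF), which cuts on the 5' side together with ERCC1, had 1109.9 in knock-down cells and 1222 in control cells (-0.18). ERCC1 was measured by 3 probe sets, of which 203720_s_at had 672 in knock-down cells and 791 in control cells (-0.28) and 228131_at had 629 in knock-down cells and 381 in control cells (0.68). Counting probe sets above the filter only, this range of 0.96 was the largest among the 44 genes. ERCC6 (CSB), which acts on stalled RNA polymerase, had 208 in knock-down cells and 195 in control cells (0.048).

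**Figure D2:**
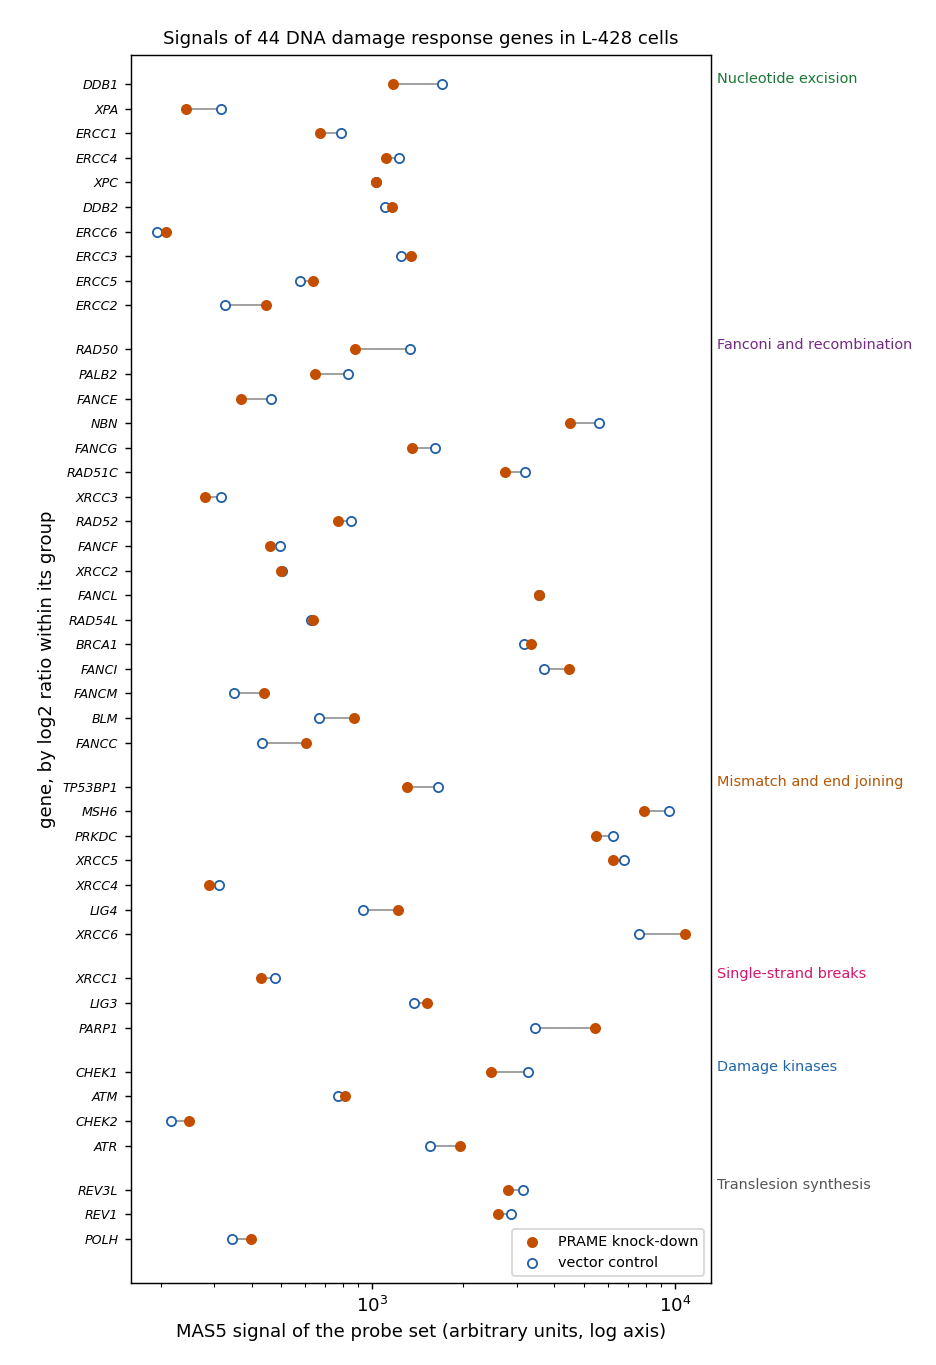
MAS5 signals (log axis, arbitrary units) of the brightest probe set of 44 repair genes in PRAME knock-down cells (filled orange) and vector control cells (open blue), 1 array per condition, grouped by role and ordered by log2 ratio within a group. The widest gaps are those of RAD50 (876 and 1335) and PARP1 (5449.8 and 3458), while XPC (1029 and 1030.2) nearly coincides.

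Fanconi and recombination genes were the largest group. Among 17 measured genes, 12 lay below 0 in log2 ratio and 5 above, with a median of -0.16. RAD50 was the only one past 1.5-fold (5.88%, against 13.0% of all genes). Of all genes, 51.0% lay below 0. With the filter at the 75th percentile 13 genes remained and the median was -0.058, against -0.059 for all genes, of which 58.4% then lay below 0. After RAD50, the lowest value was that of PALB2, which links BRCA1 and BRCA2, with a signal of 649 in knock-down cells and 831 in control cells (log2 ratio -0.40). The highest were FANCC with 603 in knock-down cells and 434 in control cells (205189_s_at, 0.43) and the helicase BLM with 869 in knock-down cells and 668 in control cells (0.33).
The subunits of the Fanconi core complex, a ubiquitin ligase, had values on both sides of 0. FANCC, given above, is also one of them and was above 0 (0.43). FANCE (369 in knock-down cells and 465 in control cells, -0.38), FANCG (1356 and 1609 in the same order, -0.29) and FANCF (459 and 496, -0.16) were below 0, and FANCL, which carries the ligase activity, had nearly equal signals (3544 and 3547, -0.046). FANCM, the helicase that brings the complex to DNA, was split between its probe sets, with 0.29 for 242711_x_at and -0.49 for 234733_s_at. FANCI, a target of this ligase, was above 0 in all 3 probe sets, with 4484 in knock-down cells and 3700.0 in control cells for 213007_at (0.23) and a range from 0.12 to 0.35. FANCI and BLM both lie on chromosome 15, where the medians over the 50 measured neighbours of FANCI and of BLM were 0.18 and 0.21. The 50 measured neighbours of FANCF had a median of -0.16. Neighbours did not always share the sign of the gene. The medians over 50 measured neighbours were -0.11 for FANCC, 0.074 for PALB2, -0.099 for ERCC2, 0.011 for DDB1 and -0.11 for LIG4, each opposite in sign to the gene. For PARP1 and XRCC6 they were 0.077 and 0.056, of the same sign as the gene. The part of these regions in the values of the genes was not tested.
BRCA1, which promotes recombination, had a signal of 3355 in knock-down cells and 3167 in control cells (204531_s_at, 0.038). RAD51C, a recombination protein, had 2752 in knock-down cells and 3200.2 in control cells (-0.26), and its second probe set also was below 0 (-0.19). The recombination genes XRCC3 (279.9 in knock-down cells and 317 in control cells, -0.23) and XRCC2 (499 and 504, -0.058) were below 0 as well. RAD54L, a motor protein of strand exchange, had 636 in knock-down cells and 629 in control cells (-0.031 after centering). RAD52, an annealing protein, had 771 in knock-down cells and 853 in control cells (205647_at, -0.19), whereas its probe set 211904_x_at had 0.53.

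Among the end joining genes, the subunits of the DNA-dependent protein kinase had values on opposite sides of 0. XRCC6 (Ku70), which forms a ring around broken ends together with XRCC5 (Ku80), had a signal of 10794 in knock-down cells and 7614 in control cells (200792_at, log2 ratio 0.46). Of the 1000 probe sets nearest in signal, 98.2% were lower. Its second probe set 215308_at, close to the filter, had 89.1 in knock-down cells and 109.8 in control cells (-0.35), and the median of both was 0.056. XRCC5 had 6257 in knock-down cells and 6788 in control cells (208642_s_at, -0.16) and -0.37 and 0.30 in the other probe sets. PRKDC, the catalytic subunit, was below 0 in all 3 probe sets, with 5502 in knock-down cells and 6243 in control cells (208694_at, -0.23).
The ligase complex that seals the ends was measured by LIG4, with 1217 in knock-down cells and 934 in control cells (227766_at, 0.34), and by its partner XRCC4, with 289 in knock-down cells and 311 in control cells (-0.15). TP53BP1, which protects ends from trimming and favours end joining, was below 0 in all 3 probe sets above the filter. The signals in knock-down and control cells were 1307 and 1650.2 for 203050_at (-0.38), 512 and 722 for 213266_at (-0.54) and 224 and 426 for 1569098_s_at (-0.98). The mismatch repair gene MSH6 was below 0 in both probe sets above the filter, with 7906 in knock-down cells and 9573 in control cells (202911_at, -0.32) and 4774 in knock-down cells and 6326 in control cells for 211450_s_at (-0.45). Only 8.8% and 6.4% of the probe sets nearest in signal were lower. The median of the 7 genes of mismatch repair and end joining was -0.16, but it was 0.035 for 6 genes without probe sets ending in _s_at, _x_at or _a_at, so its sign depended on the choice of probe sets.

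The damage kinases also differed among each other. CHEK1, the effector kinase of ATR, was below 0 in all 4 probe sets, with a signal of 2465 in knock-down cells and 3274 in control cells for 205394_at (log2 ratio -0.45) and a range from -0.45 to -0.21. ATR itself was above 0 in both probe sets above the filter, with 1948 in knock-down cells and 1547 in control cells (209903_s_at, 0.29) and 557.5 in knock-down cells and 409.6 in control cells (209902_at, 0.40). ATM had 811 in knock-down cells and 773 in control cells for 210858_x_at (0.024), while its probe sets 212672_at and 208442_s_at had -0.32 and -0.36. CHEK2, the effector kinase of ATM, had 248 in knock-down cells and 216 in control cells (0.15). The median over the 50 measured neighbours in gene order was 0.19 for ATR, -0.12 for CHEK1, 0.020 for ATM and 0.13 for CHEK2. The part of these regions in the values was not tested.
In translesion synthesis, the catalytic subunit of polymerase zeta REV3L had 2803 in knock-down cells and 3142 in control cells (208070_s_at, -0.21) and 676 in knock-down cells and 984 in control cells for 238736_at (-0.59). REV1, a scaffold for these polymerases, had 2605 in knock-down cells and 2866 in control cells (218428_s_at, -0.18). POLH, which copies past ultraviolet lesions, had 399 in knock-down cells and 345 in control cells (233852_at, 0.16) with values from -0.26 to 0.23 in its 5 probe sets above the filter. The 50 measured neighbours had medians of -0.14 for REV3L, 0.044 for REV1 and -0.088 for POLH, and their part was not tested.

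Agreement between probe sets of one gene was examined within these arrays. It can mix measurement noise with differences in signal and in the transcripts detected, and it does not give the spread between cultures. Of 26 repair genes with at least 2 probe sets above the filter, 9 were below 0 in all of them (34.6%, against 28.3% of all 5840 such genes), 6 were above 0 in all (23.1%, against 21.2%) and 11 were mixed (42.3%, against 50.5%). The 9 genes below 0 were CHEK1, ERCC4, FANCF, MSH6, PRKDC, RAD50, RAD51C, REV3L and TP53BP1, and the 6 above 0 were ATR, BRCA1, ERCC2, ERCC6, FANCI and LIG4. The SD among log2 ratios of the same gene, pooled over genes, was 0.28 for the repair genes and 0.33 for all genes. None of the 26 repair genes was split in sign over a range of 1 or more, a count that was not made for all genes. Of the 92 probe sets of repair genes above the filter, 5 (5.43%) passed 1.5-fold on the low side and 3 (3.26%) on the high side, compared with 6.54% and 7.38% of all 22379 such probe sets.

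**Figure D3:**
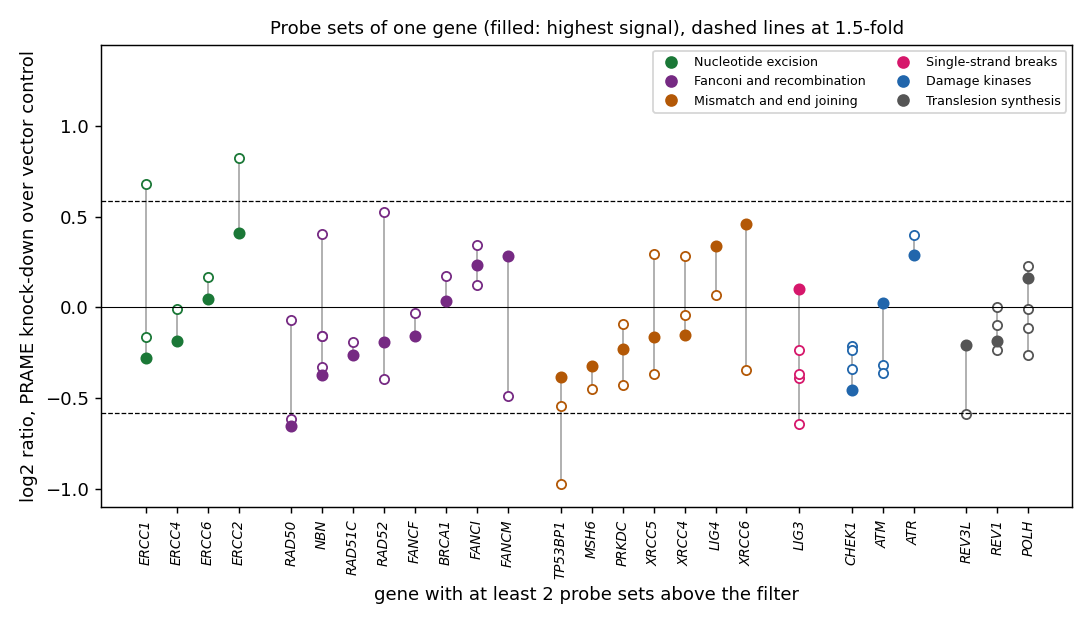
Log2 ratios (PRAME knock-down cells over control cells) of the probe sets above the filter, shown for 26 repair genes with at least 2 of them (filled: probe set with the highest signal, dashed lines at 1.5-fold, 1 array per condition). All points of TP53BP1, MSH6 and CHEK1 lie below 0 and all points of FANCI and ATR above 0, while ERCC1 ranges from -0.28 to 0.68.

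A second list held 93 other genes of DNA repair and damage signaling, of which 83 were measured. Of these 83 genes, 7 (8.43%) were at least 1.5-fold lower in PRAME knock-down cells, against 5.42% of all genes. None was at least 1.5-fold higher, against 7.54% of all genes. The median log2 ratio was -0.080, with 53 genes below 0 (63.9%, against 51.0% of all genes) and 30 above 0. With the filter at the 75th percentile, 4 of 69 genes were lower and none was higher, against 4.99% and 2.49% of all genes. With this filter 63.8% of the 69 genes lay below 0, against 58.4% of all genes. Without probe sets ending in _s_at, _x_at or _a_at, 57 genes remained, of which 3 were lower and 3 were higher (5.26% each). All genes had 5.92% lower and 8.05% higher in that setting, and the one-sided split was not kept.
The lowest was DNA polymerase lambda (POLL), a gap filler of end joining, with a signal of 58.4 in knock-down cells and 181 in control cells (221049_s_at, log2 ratio -1.68), followed by polymerase mu (POLM) with 79.0 in knock-down cells and 139.6 in control cells (-0.87). Both had signals below the filter in knock-down cells, and with an offset of 64 their log2 ratios were -1.04 and -0.55. XAB2, which binds XPA, had 176 in knock-down cells and 301 in control cells (-0.82).
The kinase module of TFIIH was represented by CDK7 with 2474 in knock-down cells and 4021 in control cells (-0.75), its cyclin CCNH with 3740.0 in knock-down cells and 5892 in control cells (-0.70) and the assembly factor MNAT1 with 1349 in knock-down cells and 1610.2 in control cells (-0.30). For CDK7 and CCNH, 1.4% of the probe sets nearest in signal were lower. Both lie on chromosome 5, and the 50 neighbours of each had medians of -0.13 and -0.085. The core subunits GTF2H1 (-0.069), GTF2H3 (0.21), GTF2H4 (-0.15) and GTF2H5 (0.13) were on both sides of 0.
RPA2, a subunit of the protein that coats single-stranded DNA, had 2332 in knock-down cells and 3435 in control cells (-0.60), against -0.011 for RPA1 and 0.20 for RPA3. ABRAXAS1, the scaffold of a BRCA1 complex at breaks, had 508 in knock-down cells and 768 in control cells (226521_s_at, -0.64) and -0.14 in its second probe set. Its partners BRCC3 (488 in knock-down cells and 695 in control cells, -0.56), UIMC1 (2014 and 2418 in the same order, -0.31) and BABAM1 (1028 and 1116, -0.16) were also below 0, each by less than 1.5-fold. The measured neighbours in gene order had medians of -0.17 for ABRAXAS1, -0.20 for BRCC3, -0.24 for UIMC1 and -0.053 for BABAM1. The part of these regions in the 4 values was not tested. On the high side, GEN1, a resolvase of recombination (0.54), SMC5 (0.50) and the base excision nuclease APEX1 (0.49) came closest to the threshold. The other SMC5 probe sets above the filter both passed 1.5-fold on the high side, whereas another one of GEN1 had -0.56.

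Genes of DNA replication and mitosis, which share cell cycle control with several repair genes, gave similar medians. The median log2 ratio was -0.12 for 34 replication genes and -0.11 for 24 mitosis genes, compared with -0.10 for the 44 repair genes. Of the replication genes, ORC6 was at least 1.5-fold higher (3199 in knock-down cells and 1896 in control cells, 0.71), and no gene of either list was at least 1.5-fold lower. Of all genes, 7.54% were at least 1.5-fold higher and 5.42% at least 1.5-fold lower. The part of cell cycle differences in the values of the repair genes was not tested.

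**Figure D4:**
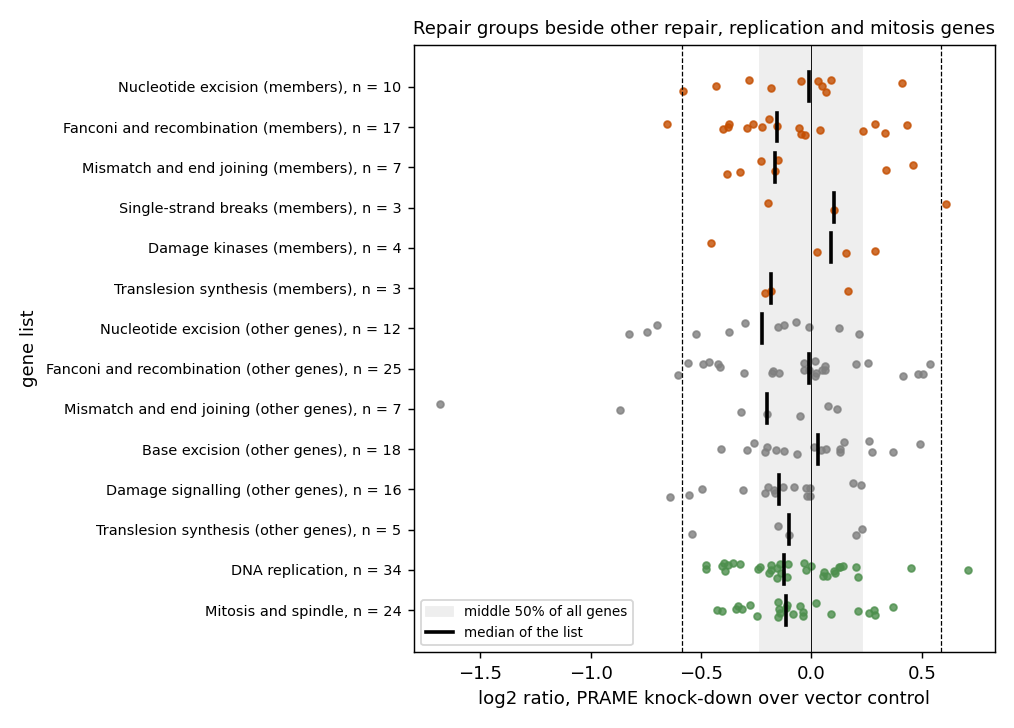
Log2 ratios (PRAME knock-down cells over control cells) of single genes (points) of the repair groups, of other genes of the same pathways, and of replication and mitosis genes, with the median of each list (black bars), the middle 50% of all genes (grey band, -0.23 to 0.23) and dashed lines at 1.5-fold. The medians of the 6 repair groups range from -0.18 for translesion synthesis to 0.10 for single-strand breaks, and the lowest point is POLL at -1.68.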

How the data were processed

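RNA from L-428 cells was measured on 1 Affymetrix HG_U133PLUS2.0 array per condition. The authors processed the arrays with Affymetrix Expression Console 1.1, using MAS5 and Robust Multiarray Averaging (RMA). The array signals and fold changes in the paper's figure are RMA values, which were not used here. The deposited values are linear MAS5 intensities, scaled per array, of 54675 probe sets. MAS5 detection calls were not used here. The number of arrays limits the precision.

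The 62 control probe sets were left out. After log2 transformation with no offset, the 27307 probe sets whose mean over both arrays reached the overall median (a signal of 97.7) were kept, and 0.045 was subtracted from the log2 ratios to center them. Names came from the platform annotation (1 symbol for 41097 probe sets, several for 1801, none for 11777), and 41043 of the single symbols were brought up to date with the RefSeq gene table, used also for chromosome and gene order. Only probe sets with 1 symbol named a gene. Probe sets ending in _s_at, _x_at or _a_at may detect several transcripts or related sequences.

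With 1 array per condition, differences were described by thresholds of 1.5-fold and 2-fold beside the share of all genes past them, without a test. Full values were given for genes past 1.5-fold and for the 2 lowest and 2 highest of each role group. Other genes and complexes were named after their values were seen, many of them also with both signals. The gene list, its groups and the second list were chosen with earlier results of these data known. As 8 alternatives, centering was omitted, arrays were quantile normalized, a loess curve (span 0.4) was removed, 64 was added to each signal, the filter was dropped or raised to the 75th percentile, probe sets were summarized by their median, or those with the named endings were left out. The filter alternatives kept the same centering. The script was tested on simulated arrays with known changes. Calculations used Python 3.11.15 with pandas 2.3.3, numpy 2.4.6 and statsmodels 0.14.6, and plots matplotlib 3.10.9.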

Additional observations from a re-analysis of the deposited data

How the results depend on the processing

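With 1 array per condition no replicate could be left out, and no paired analysis was possible because each group had 1 sample without a replicate number. No 1.5-fold call of a repair gene changed its sign under the 8 alternatives. The count of lower repair genes was 0 after quantile normalization and 0 after loess subtraction, where RAD50 fell just short of the threshold. Without probe sets ending in _s_at, _x_at or _a_at the count was 1, but the gene was REV3L (-0.59), and RAD50 had -0.067. With the median over probe sets the count of higher repair genes was 2, by the addition of ERCC2. The median log2 ratio of Fanconi and recombination genes was -0.058 with the filter at the 75th percentile, and that of mismatch and end joining genes was 0.035 without the named endings. The median of the nucleotide excision genes lay near 0 and had a positive sign without centering (0.036) and after quantile normalization (0.0013). The median of the measured repair genes stayed below 0 in each of the 8 alternatives (-0.10 to -0.057), which rested on 33 genes with the filter at the 75th percentile and on 36 without the named endings.

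For the second list of repair genes, the counts under the alternatives were added after the data were seen. With the filter at the 75th percentile, 4 of 69 genes were lower (5.80%, against 4.99% of all genes). None of the 69 was higher, against 2.49% of all genes. Without the named endings, 3 of 57 were lower (5.26%, against 5.92% of all genes). The number of higher genes was 2 of 83 (2.41%) after quantile normalization, after loess subtraction and with the median over probe sets. All genes had 6.51%, 6.47% and 7.12% in the same order. Without the named endings 3 of 57 were higher (5.26%, against 8.05% of all genes). The causes were not tested. Without the filter 29.8% of 19775 genes passed 1.5-fold in either direction, while the repair genes kept their values, since the probe set with the highest signal was the same. Of the 44 repair genes, 35 kept the sign of their log2 ratio in every alternative that measured them and 9 changed it. The 9 were ERCC6, XPC, FANCL, FANCM, RAD54L, XRCC5, LIG3, ATM and POLH. Such a count was not made for all genes. For the 18 repair genes with 1 probe set above the filter, the filter and probe set alternatives could not change the value.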

Other observations

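PMS2, the endonuclease partner in mismatch repair, shares both of its probe sets with the related sequence PMS2CL, so no value belongs to PMS2 alone. For 209805_at the signal was 460.2 in PRAME knock-down cells and 394 in control cells (log2 ratio 0.18), and 221206_at had 724 in knock-down cells and 963 in control cells (-0.46). Probe set 232287_at, annotated to ERCC6 and PGBD3, had 261 in knock-down cells and 267 in control cells (-0.078).

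Of the 107 probe sets of repair genes, 15 lay below the filter and were not counted. The lowest ratio among them was that of the TP53BP1 probe set 1569097_at, at 2.20 in knock-down cells and 41.7 in control cells (log2 ratio -4.29). The highest was that of the RAD52 probe set 236880_at, with 60.7 in knock-down cells and 11.5 in control cells (2.36). At such signals the ratio is not well determined. Of 18 base excision genes in the second list, none differed by 1.5-fold, against 13.0% of all genes, a share at which a list of 18 holds few such genes. The median log2 ratio was 0.028, with APEX1 highest (0.49) and LIG1 lowest. The uracil glycosylase UNG had a signal of 2469 in knock-down cells and 1855 in control cells (0.37), while the ligase LIG1 had 748 in knock-down cells and 964 in control cells (-0.41).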
